A study of Mus musculus with 28 samples.

Results

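The 8 genes *Hmgcs1*, *Sqle*, *Insig1*, *Msmo1*, *Idi1*, *Fdft1*, *Cyp51* and *Lss* of cholesterol synthesis were followed in ovaries of juvenile mice of about a week of age, 6 h after irradiation. They were chosen by name, with earlier results of these data known. Their symbols were matched to the gene identifiers of the bulk table through a table of gene names and, where it had none, the gene list of the single-cell libraries, which named 44152 identifiers in all. All 8 were found among the 44674 genes of the bulk table and among the 23623 genes kept in single cells, and all 8 passed the bulk filter of at least 10 counts over all libraries, with 26790 genes tested. Females were wild type (WT, C57BL/6J) or *Chek2*-/- (the *Chek2*tm1b(EUCOMM)Hmgu allele, which lacks the checkpoint kinase CHEK2 in every tissue), and received 0.5 Gy of total body radiation from a caesium source (IR) or sham treatment (nonIR). Whole ovary pairs gave 24 bulk libraries, 6 per group, and dissociated ovaries pooled from 4 females gave 1 single-cell library for each of the 4 conditions. The allele and the genetic background it was made on cannot be told apart. The p-values measure only the spread between these libraries.

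Cholesterol is made from acetyl-CoA through the mevalonate pathway. HMGCS1 joins acetyl-CoA and acetoacetyl-CoA to HMG-CoA, IDI1 interconverts the isoprenoid building blocks IPP and DMAPP, and FDFT1 (squalene synthase) makes squalene, the first intermediate committed to sterols. SQLE oxidises squalene, LSS closes it into lanosterol, and CYP51 and MSMO1 remove methyl groups from lanosterol and its products. INSIG1 is not an enzyme of the chain: it holds the SCAP-SREBP complex in the endoplasmic reticulum when sterols are plentiful, and its own gene, like those of the enzymes, is a target of SREBP2, the transcription factor that raises the pathway when sterols are scarce. In the ovary, granulosa cells of growing follicles are known to supply sterols to the oocyte, which makes little cholesterol itself in growing mouse follicles.

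In mouse build GRCm38 the GENCODE annotation places *Hmgcs1* (ENSMUSG00000093930) at chr13:119690379-119708260 on the plus strand and *Idi1* (ENSMUSG00000058258) at chr13:8885501-8892451 on the plus strand of the same chromosome. *Insig1* (ENSMUSG00000045294, chr5:28071363-28078662, plus) and *Cyp51* (ENSMUSG00000001467, chr5:4081145-4104746, minus) share chromosome 5. *Msmo1* (ENSMUSG00000031604) lies at chr8:64718139-64733792 on the minus strand, *Fdft1* (ENSMUSG00000021273) at chr14:63145150-63179578 on the minus strand, *Sqle* (ENSMUSG00000022351) at chr15:59315077-59331192 on the plus strand and *Lss* (ENSMUSG00000033105) at chr10:76531588-76557138 on the plus strand.

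The promoters of *Hmgcs1*, *Insig1*, *Msmo1* and *Idi1* are shown because these genes were among those with the largest ratios in the irradiated granulosa-like cells described further on. *Cyp51*, with a larger ratio there than *Msmo1*, is not shown. The 250 bases before the transcription start given by RefSeq (GRCm38.p6) were available for 6 of the 8 genes, *Hmgcs1*, *Insig1*, *Msmo1*, *Idi1*, *Cyp51* and *Lss*. The 3 motifs known from SREBP-controlled promoters that were searched on both strands follow, and their matches are in capitals. They were the sterol regulatory element (SRE) TCACNCCAC, the NF-Y motif CCAAT and the Sp1 motif GGGCGG. The windows are chr13:119690101-119690350 (plus) for *Hmgcs1*, chr5:28071162-28071411 (plus) for *Insig1*, chr8:64733579-64733828 (minus) for *Msmo1* and chr13:8885356-8885605 (plus) for *Idi1*, each read 5′ to 3′ in the direction of its gene.
Hmgcs1: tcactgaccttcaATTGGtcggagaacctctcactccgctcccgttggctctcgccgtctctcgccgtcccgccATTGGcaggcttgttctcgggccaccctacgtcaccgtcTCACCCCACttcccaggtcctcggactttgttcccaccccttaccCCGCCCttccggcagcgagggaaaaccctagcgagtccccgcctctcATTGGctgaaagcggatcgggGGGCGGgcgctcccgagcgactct
Insig1: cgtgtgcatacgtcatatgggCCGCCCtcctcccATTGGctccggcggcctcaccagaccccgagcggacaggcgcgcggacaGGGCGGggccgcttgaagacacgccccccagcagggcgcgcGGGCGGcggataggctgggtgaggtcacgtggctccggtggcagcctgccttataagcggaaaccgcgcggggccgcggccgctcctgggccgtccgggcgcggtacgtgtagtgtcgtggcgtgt
Msmo1: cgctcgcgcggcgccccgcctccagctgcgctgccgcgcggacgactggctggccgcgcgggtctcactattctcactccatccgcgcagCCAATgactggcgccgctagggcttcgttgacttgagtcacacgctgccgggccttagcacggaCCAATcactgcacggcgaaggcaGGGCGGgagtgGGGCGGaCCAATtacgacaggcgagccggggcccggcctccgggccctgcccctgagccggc
Idi1: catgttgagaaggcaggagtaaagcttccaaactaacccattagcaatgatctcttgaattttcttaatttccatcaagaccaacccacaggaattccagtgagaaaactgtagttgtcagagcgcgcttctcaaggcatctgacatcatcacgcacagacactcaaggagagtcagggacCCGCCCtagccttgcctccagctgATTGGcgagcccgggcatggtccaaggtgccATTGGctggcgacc

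The window of *Hmgcs1* held the only SRE match, with its first base 137 bases before the start, between CCAAT matches whose first bases are 176 and 45 bases before it. The SRE letters occurred in 1 of the 6 windows and in 1.05% of the 32851 RefSeq windows of that length. All 6 windows held CCAAT and all 6 held GGGCGG, against 33.8% and 32.7% of all windows, and 3618 of all windows held both. *Msmo1* held 3 CCAAT and 2 GGGCGG matches, *Insig1* 1 and 3, and *Idi1* 2 and 1. The windows not shown held 1 and 1 (*Cyp51*) and 1 and 2 (*Lss*). The windows of *Insig1*, *Msmo1*, *Idi1*, *Cyp51* and *Lss* reach into the gene as GENCODE annotates it. For *Msmo1* most of the window, and for *Msmo1* and *Idi1* all motif matches, lie inside the annotated gene. A match describes letters in the window and not a bound site.

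The bulk libraries held 17824920 to 32605519 estimated counts. Levels below are counts-per-million (CPM) on TMM-scaled library sizes, called genes have an adjusted p of at most 0.05 in edgeR's quasi-likelihood test (Benjamini-Hochberg over all 26790 genes), and changes are log2 fold changes with their standard errors. As a check of the labels, *Chek2* was at 18.5 to 24.6 CPM in the WT libraries and 2.88 to 4.53 CPM in the *Chek2*-/- libraries. The 8 p53 target genes listed as a check of irradiation were all called higher after IR in WT ovaries, with a median log2 fold change of 1.72, the smallest adjusted p-values being those of *Ccng1* (2.03), *Mdm2* (1.33), *Eda2r* (1.78), *Bbc3* (1.89), *Pmaip1* (2.68) and *Trp53inp1* (1.23). In *Chek2*-/- ovaries only *Ccng1* (0.56) and *Eda2r* (0.53) of the 8 were called, and all 8 were called lower in the interaction. Between the nonIR groups 2 of the 8 were called, in 25 and 26 of 35 alternatives. Markers of oocytes and of granulosa cells, 10 genes each, were measured in every library. The summed oocyte markers were at 2134 to 2743 CPM in 22 libraries and at 1206 and 1376 CPM in replicate 6 of nonIR and of IR *Chek2*-/- ovaries, and these 2 libraries stood apart from the others. Summed erythroid markers reached 10428 CPM in replicate 5 of the nonIR and 7038 CPM in replicate 2 of the IR *Chek2*-/- group, with the others at 198 to 926 CPM, and summed neutrophil markers were at 1302 and 1300 CPM in replicate 3 of IR WT and replicate 2 of IR *Chek2*-/- and at most at 10.1 CPM elsewhere. In bulk tissue, fewer cells of a type and less RNA per cell cannot be told apart.

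The 8 genes varied by less than 2-fold across the bulk libraries. The highest of the 24 libraries exceeded the lowest by 1.39-fold for *Lss*, 1.4-fold for *Insig1*, 1.45-fold for *Sqle*, 1.5-fold for *Msmo1*, 1.61-fold for *Cyp51*, 1.66-fold for *Hmgcs1*, 1.74-fold for *Fdft1* and 1.75-fold for *Idi1*. Their coefficients of variation over the 24 libraries were 8.46% (*Insig1*) to 17.0% (*Idi1*), beside a median of 8.64% over the 8148 genes with a mean of 20 to 200 CPM, and 7 of the 8 lay above that median. Part of the spread was shared between the genes. Replicate 1 of the nonIR WT group was the highest of its group for all 8 genes, replicate 6 of the IR WT group for 6 of 8, and replicate 4 of the IR *Chek2*-/- group for 6 of 8.

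**Figure D1:**
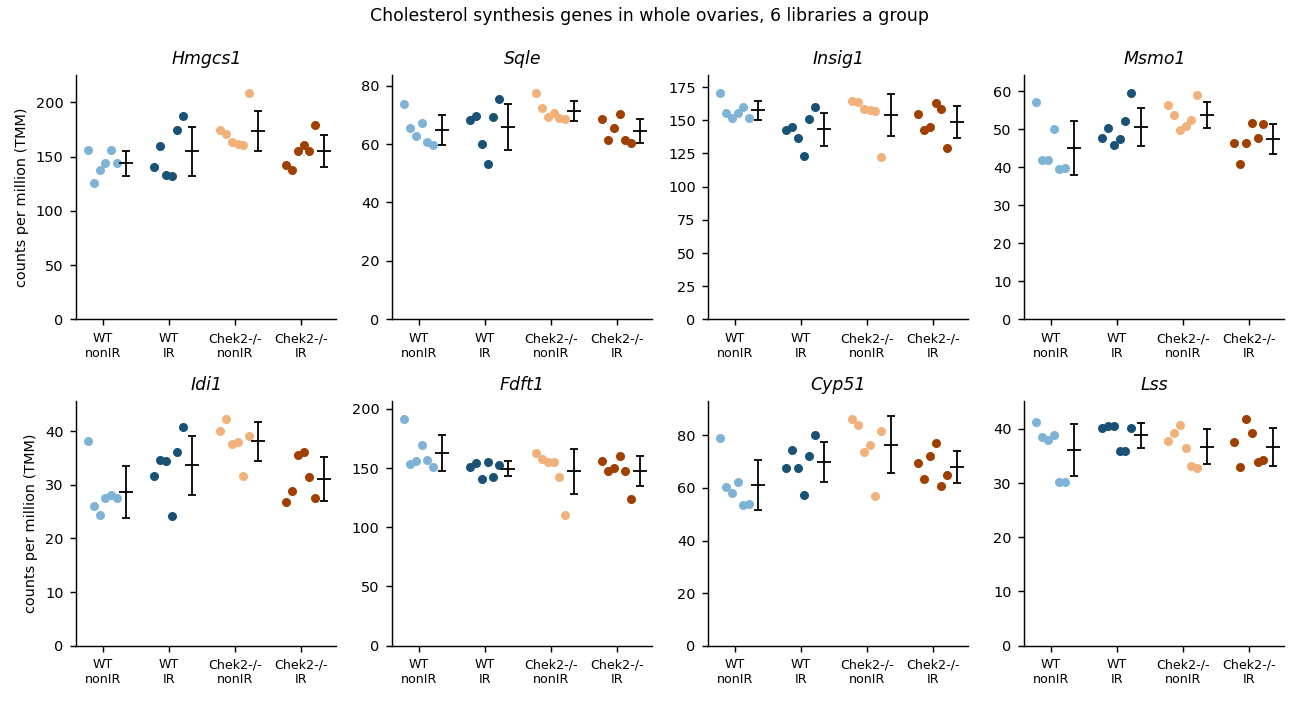
Levels of the 8 genes in whole ovaries in counts-per-million, CPM (TMM-scaled, axes from 0), 1 point per bulk library with the mean and SD of the 6 libraries of each group beside it. *Hmgcs1* shows the 6 nonIR *Chek2*-/- libraries, from 160 to 209 CPM, above the 6 nonIR WT libraries, from 126 to 156 CPM.

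In WT ovaries no member of the 8 was called 6 h after IR, while 646 of the 26790 genes tested (2.41%) were. DESeq2 and limma-voom also called 0, and *Idi1* was the only gene of the 8 with an unadjusted p under 0.05, beside 11.4% of all genes. Of the 8 fitted values, 6 were above 0, with a median log2 fold change of 0.10 beside a median of 0.00 over all genes, and the 8 ranged from −0.14 to 0.24. *Idi1*, the IPP isomerase, was at 24.3, 27.5 and 38.1 CPM (lowest, median, highest) without and 24.1, 34.5 and 40.7 CPM with IR, and the 2 groups overlapped over most of their ranges. Its log2 fold change was 0.24 ± 0.11 (SE, n = 6 per group, edgeR adjusted p = 0.42). *Cyp51*, the lanosterol 14-alpha-demethylase, had a median of 59.1 CPM without and 69.9 CPM with IR (0.19 ± 0.10, edgeR adjusted p = 0.48). *Msmo1*, which acts later than CYP51, had medians of 41.9 and 48.9 CPM (0.17 ± 0.08, edgeR adjusted p = 0.46). The 2 genes with values below 0 were *Insig1* (−0.14 ± 0.07, edgeR adjusted p = 0.47) and *Fdft1* (−0.13 ± 0.08, edgeR adjusted p = 0.61). *Fdft1* was at 151, 156 and 191 CPM without and 141, 152 and 155 CPM with IR, where 4 of the 6 nonIR libraries lay above every IR library. The 10 oocyte markers were all below 0 in the same comparison (median −0.28), 2 of them called lower, with summed levels of 2262 to 2743 CPM without and 2171 to 2526 CPM with IR, and their part in the values of *Insig1* and *Fdft1* was not tested. All 5 erythroid markers were also below 0 (median −0.54). All 8 of macrophages (0.23), all 7 measured of surface epithelium (0.09) and all 5 of neutrophils (6.89) were above 0. Of the neutrophil markers, 4 had an unadjusted p under 0.05. None of these other lists held a call by edgeR, and their part was not tested. Of the 8 genes only *Idi1* had a 95% interval without 0 (0.0054 to 0.47). The intervals of *Cyp51*, *Msmo1*, *Insig1*, *Fdft1*, *Hmgcs1* (0.10), *Lss* (0.10) and *Sqle* (0.02) held 0. With libraries numbered 1 to 4 only, a choice made after seeing the data, the median of the 8 was 0.015.

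In *Chek2*-/- ovaries the fitted values leaned the other way, and again no member was called, where 3 genes of all (0.0112%) were. DESeq2 and limma-voom called 0 of the 8, and 3 of the 8 (*Idi1*, *Msmo1* and *Sqle*) had an unadjusted p under 0.05, beside 4.4% of all genes. Of the 8, 7 were below 0, with a median log2 fold change of −0.15 beside 0.00 over all genes. *Idi1* was at 31.6, 38.5 and 42.3 CPM without and 26.8, 30.1 and 36.1 CPM with IR (−0.30 ± 0.11, edgeR adjusted p = 0.92). *Msmo1* was at 49.9, 53.2 and 58.9 CPM without and 40.8, 47.0 and 51.6 CPM with IR (−0.18 ± 0.08, edgeR adjusted p = 1.0). In both genes the IR group sat lower but the groups overlapped. *Cyp51* (−0.17), *Hmgcs1* (−0.16) and *Sqle* (−0.14) had similar sizes. *Insig1* (−0.05), *Lss* (0.00) and *Fdft1* (0.00) were within 1 standard error of 0. All 5 neutrophil markers (median 6.19) and 7 of 8 macrophage markers (0.16) were above 0 in this comparison. None of them was called by edgeR, 5 and 1 had an unadjusted p under 0.05, and their part was not tested. Markers of several other cell types were, like most of the 8 genes, below 0. They were all 6 of smooth muscle (median −0.43), all 7 measured of surface epithelium (−0.25), all 6 of oviduct and uterine epithelium (−0.49), all 7 of adipocytes (−0.51), all 5 of erythroid cells (−0.53), all 6 of the theca list (−0.22) and all 7 of endothelium (−0.04). None of these was called by edgeR, and 3, all of the oviduct and uterine list, had an unadjusted p under 0.05. Their summed levels overlapped between the groups, at 119 to 255 CPM without and 98.0 to 176 CPM with IR for smooth muscle and 466 to 1231 and 494 to 1050 CPM for surface epithelium, 43.0 to 118 and 38.6 to 98.8 CPM for oviduct and uterine epithelium and 1.92 to 15.8 and 1.70 to 6.78 CPM for adipocytes, and their part in the values was not tested.

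Whether the 2 genotypes responded differently was tested by the interaction of genotype and IR. None of the 8 was called, beside 277 genes of all (1.03%), and DESeq2 and limma-voom also called 0. Of the 8, 4 had an unadjusted p under 0.05, beside 9.14% of all genes, each with a lower response in *Chek2*-/- ovaries. These were *Idi1* (−0.53 ± 0.16, edgeR adjusted p = 0.13), *Msmo1* (−0.35 ± 0.12, edgeR adjusted p = 0.23), *Cyp51* (−0.37 ± 0.14, edgeR adjusted p = 0.35) and *Hmgcs1* (−0.26 ± 0.12, edgeR adjusted p = 0.50). Their mean CPM in nonIR WT and nonIR *Chek2*-/- were 28.6 and 38.1, 45.1 and 53.7, 61.2 and 76.5, and 144 and 173. In IR WT and IR *Chek2*-/- they were 33.6 and 31.1, 50.5 and 47.4, 69.9 and 67.9, and 155 and 155. The IR groups were not tested against each other. The same nonIR libraries enter the genotype comparison below, so the 2 results are not independent. The median over the 8 was −0.21, beside 0.00 over all genes. Single libraries decided the calls here: without replicate 1 of nonIR WT, the library that was highest for all 8 genes, *Idi1* (edgeR adjusted p = 0.022) and *Msmo1* (edgeR adjusted p = 0.040) were called, and without replicate 4 of IR WT *Idi1* was called (edgeR adjusted p = 0.032). *Fdft1* (0.13) and *Insig1* (0.09) had the opposite sign, with intervals that held 0, and all 10 oocyte markers were above 0 in the interaction (median 0.31, 1 called). Markers of smooth muscle (6 of 6, median −0.37), surface epithelium (7 of 7, −0.31), adipocytes (7 of 7, −1.42) and oviduct and uterine epithelium (5 of 6, −0.98) were below 0 in it. None of these was called by edgeR, 3 of the last list had an unadjusted p under 0.05, and the part of these lists in the interaction was not tested.

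Without irradiation, 1 of the 8 genes was called between genotypes, beside 1430 genes of all (5.34%), and 0 of the 8 passed a 2-fold minimum, beside 211 genes (0.788%). That gene was *Idi1*, 1.33-fold higher in *Chek2*-/- ovaries (log2 fold change 0.42 ± 0.11, edgeR adjusted p = 0.030), with 5 libraries at or above 37.7 CPM in the *Chek2*-/- group and 5 at or below 28.1 CPM in the WT group. The 2 groups overlapped through replicate 1 of WT (38.1 CPM) and replicate 5 of *Chek2*-/- (31.6 CPM). The call of *Idi1* was kept in 28 of 35 alternatives. It was lost with the 2 groups fitted alone (edgeR adjusted p = 0.050), without WT replicate 2, 3 or 4 (0.0742 to 0.0823) and without *Chek2*-/- replicate 1, 2 or 4 (0.0503 to 0.0663). *Hmgcs1*, the synthase at the entry of the pathway, did not pass the threshold (0.27 ± 0.09, edgeR adjusted p = 0.068), although its groups did not overlap. It was at 126, 144 and 156 CPM in WT and 160, 167 and 209 CPM in *Chek2*-/- ovaries, so every *Chek2*-/- library lay above every WT library.

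*Cyp51* (0.32 ± 0.10, edgeR adjusted p = 0.056) and *Msmo1* (0.25 ± 0.08, edgeR adjusted p = 0.071) were close to the threshold in the same comparison. *Cyp51* was at 53.5, 59.1 and 79.1 CPM in WT and 56.9, 79.1 and 86.2 CPM in *Chek2*-/- ovaries, and *Chek2*-/- replicate 5, the library with the highest erythroid markers, was the lowest of its group for *Cyp51*, *Idi1* and *Hmgcs1*. The part of those markers in the values was not tested. Without that library *Cyp51* was called (edgeR adjusted p = 0.013), as it was without IR WT replicate 4 (0.0496) and, together with *Msmo1*, without nonIR WT replicate 1 (*Cyp51* 0.0146, *Msmo1* 0.014). *Hmgcs1* was called without IR WT replicate 6 (0.0463) or IR *Chek2*-/- replicate 6 (0.0476). DESeq2 called *Hmgcs1*, *Msmo1*, *Idi1* and *Cyp51*, 4 of the 8, beside 2423 of 26790 genes. Limma-voom called *Idi1*, beside 1333 of 26790. *Sqle* (0.13), *Lss* (0.02), *Insig1* (−0.03) and *Fdft1* (−0.15) were not called in any alternative. Sums of granulosa markers were at 1906 to 2311 CPM in nonIR WT and 1530 to 2015 CPM in nonIR *Chek2*-/- libraries and sums of stroma markers at 4484 to 5768 and 3477 to 4868 CPM. By edgeR, 3 of 8 stroma markers (7 below 0, median −0.25) and 2 of 7 pericyte markers were called lower in *Chek2*-/- ovaries. Called higher were 1 of 10 granulosa markers (6 below 0, median −0.14) and 1 of 6 oviduct and uterine markers. All 5 erythroid markers were above 0 (median 2.10), 0 called by edgeR and 5 with an unadjusted p under 0.05. Their sums had medians of 462 CPM in nonIR WT and 641 CPM in nonIR *Chek2*-/- libraries, with 10428 CPM in *Chek2*-/- replicate 5. The part of these lists in these differences was not tested.

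**Figure D2:**
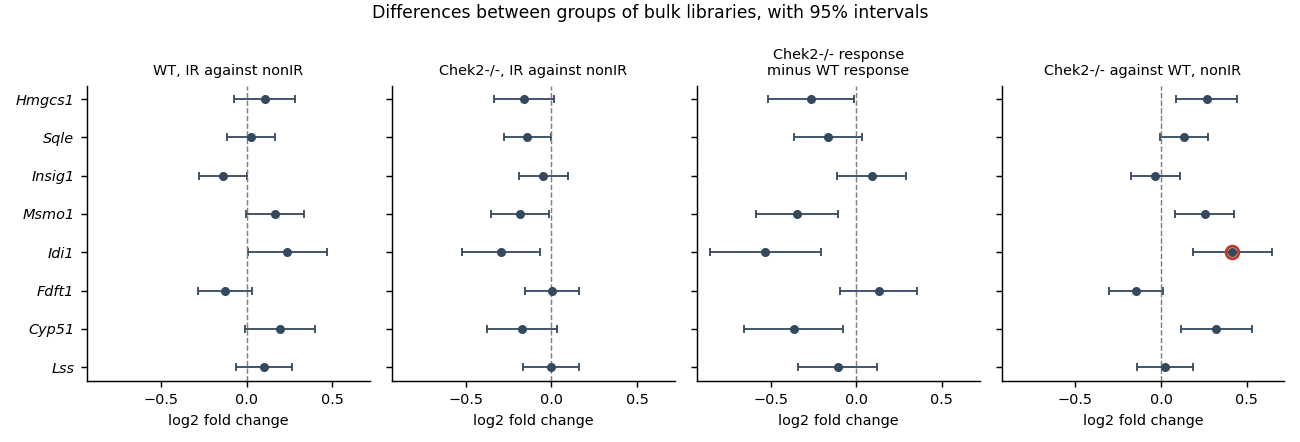
Log2 fold changes of the 8 genes with 95% intervals from the edgeR fit in 4 comparisons of the bulk libraries, 6 per group, and a dashed line at no change. The ring marks the 1 value called after adjustment over all genes, *Idi1* in nonIR *Chek2*-/- against nonIR WT ovaries (0.42).

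Calls in the rest of the pathway stand beside shares over all genes of 2.41% (IR in WT), 0.0112% (IR in *Chek2*-/-), 1.03% (interaction) and 5.34% (nonIR genotypes). None of the 17 other synthesis enzymes was called in any of the 4 comparisons by edgeR, and 3, 0, 1 and 3 of them had an unadjusted p under 0.05 in the order given above, where the shares over all genes were 11.4%, 4.4%, 9.14% and 21.6%. Their median log2 fold changes were 0.03, −0.05, −0.08 and 0.03. Of the 10 SREBP regulators, *Scap*, the escort of SREBP, was lower in nonIR *Chek2*-/- ovaries (−0.21, edgeR adjusted p = 0.037). Of the 11 uptake and transport genes, the lysosomal cholesterol exporters *Npc1* (−0.21, edgeR adjusted p = 0.014) and *Npc2* (−0.24, edgeR adjusted p = 0.031) were lower in the same comparison. *Star*, which carries cholesterol into mitochondria for steroid synthesis, was higher there (0.56, edgeR adjusted p = 0.016), the only call among 7 steroid synthesis genes. *Star* was also the only call among the 6 genes of the theca list, of which 5 were above 0 there (median 0.43), with summed levels of 283 to 441 CPM in nonIR WT and 294 to 470 CPM in nonIR *Chek2*-/- libraries. Most of that sum was *Hsd3b1*, with means of 333 and 341 CPM, while *Star* had 15.0 and 22.1 CPM. The study uses *Hsd3b1* as a marker of granulosa cells in activated follicles, so the sums do not measure theca cells alone. The 6 smooth muscle markers were all below 0 (median −0.55, 0 called by edgeR, 2 with an unadjusted p under 0.05), and the part of either list was not tested. After IR in WT ovaries *Lpin1*, a phosphatidate phosphatase and SREBP target that is also a known p53 target, rose (0.44, edgeR adjusted p = 0.0016) as the only one of 12 fatty acid genes, and *Nr1h2*, the sterol receptor LXR beta, fell by 0.13 on the log2 scale (edgeR adjusted p = 0.041) as the only one of 11 efflux and storage genes. The calls of *Npc1* and *Lpin1* were kept in 35 of 35 alternatives and that of *Star* in 34. *Nr1h2* was called in 6 of 35, and *Scap* and *Npc2* in 25 each. *Scap* lost its call without nonIR WT replicate 2, 3 or 4 or nonIR *Chek2*-/- replicate 1, 2, 3 or 6, and *Npc2* without nonIR WT replicate 1, 2, 3 or 4 or nonIR *Chek2*-/- replicate 1, 2, 4, 5 or 6, with edgeR adjusted p-values of up to 0.107 and 0.0922.

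Among the 12546 other genes with a mean of at least 5 CPM, *Fdps*, the farnesyl diphosphate synthase that acts between IDI1 and FDFT1, followed the mean of the 8 genes most closely over the 24 libraries (Pearson r = 0.83 with the mean of their standardised log2 levels). The next were *Serbp1* (0.82), *Caprin1* (0.81), *Rsl1d1* (0.79), *Xrn2* (0.78), *Cct4* (0.78), *Txnl1* (0.78) and *Hnrnpk* (0.78). With each value centred on its group mean, 4 of these 8 genes (*Fdps*, *Caprin1*, *Xrn2* and *Cct4*) were again among the 8 closest. These correlations are descriptions, since libraries share depth, cell composition and group.

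Of the 8 genes, 2 had a Pearson correlation with the oocyte markers that passed the test, and 1 of them, *Insig1*, also a Spearman correlation. Each gene was set against a score of the oocyte, granulosa and stroma markers over the 24 libraries, 24 relations in all, with two-sided permutation tests of 100000 draws. The draws shuffled libraries across the 4 groups, so these p-values mix differences between groups with relations within them. *Insig1* rose with the oocyte score (Pearson r = 0.79, adjusted permutation p = 0.00048; Spearman rho = 0.79, adjusted permutation p = 0.00048). Without the 2 libraries farthest from the median score, both *Chek2*-/- libraries numbered 6, r was 0.64, within the 12 WT libraries it was 0.62, within the 12 *Chek2*-/- libraries it was 0.94, and within the 10 of these not numbered 6, a subset added after seeing the data, it was 0.64. *Fdft1* had r = 0.67 (adjusted permutation p = 0.0036) and rho = 0.54 (adjusted permutation p = 0.0946). Without the same 2 libraries r of *Fdft1* was 0.35, so its size over all libraries depended on them, while r was 0.60 within WT, 0.94 within the 12 *Chek2*-/- libraries, 0.28 within the 10 of these not numbered 6 and 0.47 over the 16 libraries numbered 1 to 4. *Msmo1* had no such relation (r = −0.17, adjusted permutation p = 0.58). In the 2 libraries low in oocyte markers, *Fdft1* was at 110 and 124 CPM and *Insig1* at 122 and 129 CPM, the lowest value of their group in each case, while *Hmgcs1* was at 209 and 179 CPM, the highest of its group in each case.

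**Figure D3:**
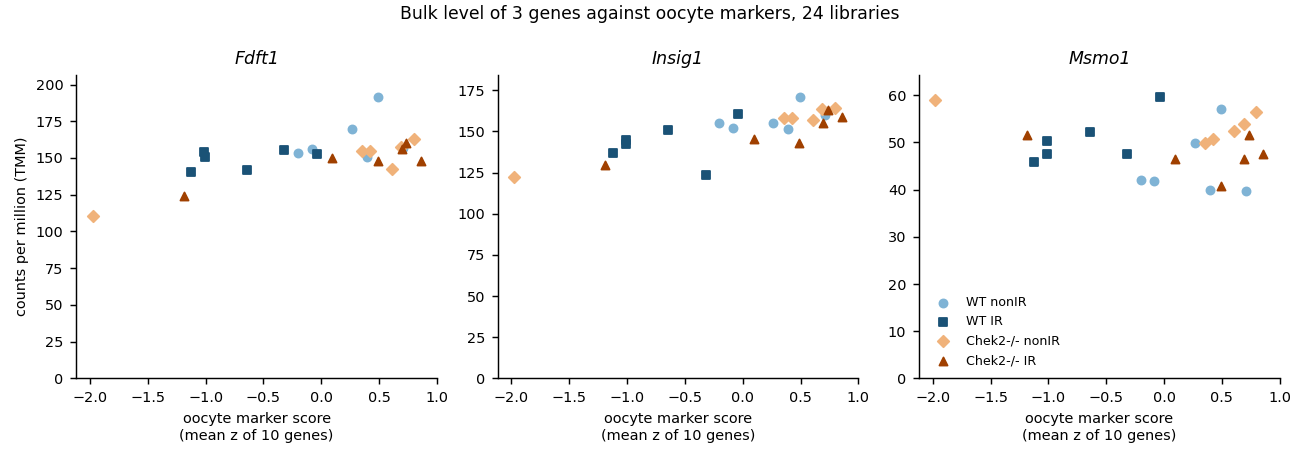
Bulk levels of *Fdft1*, *Insig1* and *Msmo1* in CPM against an oocyte marker score (mean z-score of 10 marker genes), 1 point per library for the 24 libraries of 4 groups. *Fdft1* and *Insig1* are higher where the score is higher (r = 0.67 and 0.79), with both *Chek2*-/- libraries numbered 6 at the low end, and *Msmo1* is not (r = −0.17).

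The single-cell libraries placed the 8 genes in different cells. The deposited matrices held 9488 to 11053 barcodes per library, of which 36524 cells were used after filters and removal of 4.02% to 5.47% called doublets, with a median of 13908 to 17135 unique molecular identifiers (UMIs) per cell. Pairs of libraries shared 30 to 73 barcodes, at most 0.71% of the smaller library. The cells formed 15 clusters, and 14 of them were named by marker lists into 9 classes, with naming limits that were fixed once the clusters were known. Class names end in "-like" because they were rebuilt here and need not match those of the study. The genes of the cholesterol lists were kept out of the genes used to cluster. Oocyte-like cells (566) had a median of 111892 UMIs, granulosa-like cells (12654) 21184 and stroma-like cells (18624) 12030. The granulosa-like class joined clusters 0 and 1, both led by *Amh* and the first of them dividing, and cluster 8, led by *Cst12* and *Crygb*. The top 10 genes of cluster 8 held no granulosa marker although 8 of 10 were detected. The macrophage-like cluster also had the mast cell genes *Cma1* and *Tpsb2* and the neutrophil genes *S100a8* and *S100a9* among its top 10, and the erythroid-like cluster (161 cells) also passed the limits for granulosa and stroma markers. Levels are UMI CPM, the UMIs of a gene scaled to all UMIs of a class in a library. With 1 library per condition there is no test between conditions and intervals cover counting error only. *Chek2* was at 10.9 and 10.4 UMI CPM in the WT and 3.49 and 3.81 in the *Chek2*-/- libraries.

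*Fdft1*, the squalene synthase, was highest in oocyte-like cells in all 4 libraries. It was at 350 (WT nonIR), 388 (WT IR), 358 (*Chek2*-/- nonIR) and 400 (*Chek2*-/- IR) UMI CPM, 10.3 times the median of granulosa-like cells, the next class, at 32.5 to 43.7. No other class overlapped it. Oocyte-like cells held 10.1% of the UMIs of all named classes and 61.7% of those of *Fdft1*. *Insig1*, the sterol sensor's anchor, was also highest there, at 78.0 to 107 UMI CPM with a median of 92.0, and 3.19 times the median of the next class (pericyte-like, 28.8). Oocyte-like cells gave 33.5% of its UMIs. *Fdft1* and *Insig1* were the 2 genes whose Pearson correlation with the oocyte markers in bulk passed the test, for *Fdft1* without a Spearman correlation that did. *Lss* had its highest median there too (8.60 UMI CPM), in a range that overlapped that of the 161 erythroid-like cells.

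Among the other enzymes, none had its highest share of UMIs in oocyte-like cells. *Msmo1* was at 12.6 to 24.9 UMI CPM, with the lowest median of the 9 classes (18.8), and *Idi1* (median 9.69) and *Cyp51* (17.2) were each next to last. The ranges of these 3 genes overlapped those of 3 to 5 other classes. *Hmgcs1* had 73.3 to 81.0 and *Sqle* 31.9 to 37.9 UMI CPM, in the range of several somatic classes. Per cell the order was another, since oocyte-like cells hold many more UMIs. Oocyte-like cells held 6.21 to 11.9 UMIs of *Hmgcs1* per cell against 2.14 to 3.47 in granulosa-like cells, 3.11 to 5.17 against 1.18 to 1.47 of *Sqle* and 1.70 to 2.73 against 0.67 to 1.05 of *Cyp51*. The ranges touched for *Idi1* (0.919 to 1.6 against 0.536 to 0.922) and overlapped for *Msmo1* (1.94 to 3.4 against 2.39 to 3.66). Within oocyte-like cells of nonIR ovaries *Msmo1* was lower in the *Chek2*-/- library, with a ratio of 0.56 to WT (counting interval 0.46 to 0.66), while the other 7 genes had ratios of 0.93 to 1.20. Summed granulosa markers in the same oocyte-like cells were at 504, 241, 203 and 299 UMI CPM in WT nonIR, WT IR, *Chek2*-/- nonIR and *Chek2*-/- IR, and their part in the *Msmo1* values was not tested.

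Granulosa-like cells had the highest medians of *Msmo1*, *Hmgcs1* and *Sqle*. *Msmo1* was at 104.6 (WT nonIR), 166 (WT IR), 103 (*Chek2*-/- nonIR) and 103 (*Chek2*-/- IR) UMI CPM, and these cells, with 42.6% of all UMIs, held 78.7% of its UMIs. Only the range of the erythroid-like cells, which also had granulosa markers, overlapped. *Sqle* was at 49.0, 66.6, 50.4 and 51.3 UMI CPM, above every other class in every library. *Hmgcs1* was at 91.3, 157, 92.6 and 84.1 UMI CPM, a range that overlapped those of 3 other classes. *Idi1* and *Cyp51* had their highest median in the 662 pericyte-like cells (35.7 and 38.2 UMI CPM from 226 and 220 UMIs), with ranges that overlapped those of granulosa-like cells. Stroma-like cells were lower than granulosa-like cells in the median of all 8 genes, by the least for *Cyp51* (27.9 against 28.6). The class with the highest median was the same for 8 of 8 genes in all 6 alternatives tried.

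**Figure D4:**
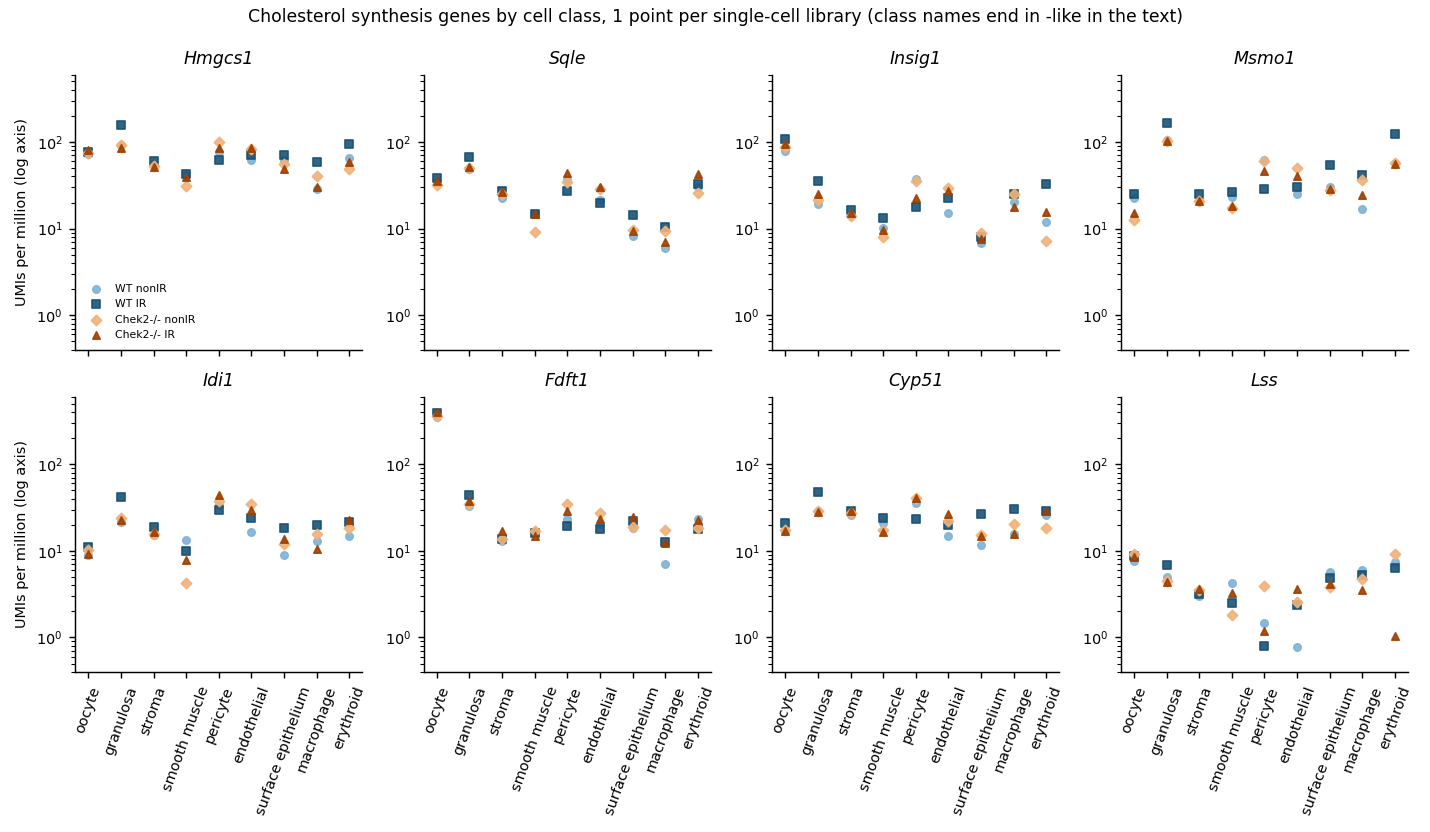
Levels of the 8 genes in 9 cell classes in UMI CPM of the class (log axis), 1 point per single-cell library, 4 libraries. *Fdft1* stands at 350 to 400 in oocyte-like cells and below 45 in the other classes shown. Of the 9 classes *Msmo1* has its highest median in granulosa-like cells, at 103 to 166 over the libraries.

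Ratios of the irradiated to the nonIR library were computed in granulosa-like, stroma-like and oocyte-like cells only. In surface epithelium-like cells, without computed ratios, *Msmo1* was at 27.6 to 54.1, *Cyp51* at 11.6 to 26.7 and *Idi1* at 8.84 to 18.5 UMI CPM. These 3 genes, *Hmgcs1* and *Sqle* were highest there in the WT IR library, and *Insig1*, *Fdft1* and *Lss* in another library. Of the 3 classes with ratios, the WT granulosa-like cells had the highest median ratio of the 8 genes. All 8 genes were higher in the irradiated library, by ratios of 1.34 to 1.94 with a median of 1.63, and no counting interval held 1. Of the 8, 5 were past 1.5-fold, beside 4.36% of the 13249 genes with at least 100 UMIs in these cells, whose median ratio was 0.98. The study had reported *Hmgcs1* and *Msmo1* as higher after IR in WT pregranulosa cells of these libraries. The list was thus not independent of these data, and the count of 5 is a description. The 5 were *Idi1* at 21.6 and 41.8 UMI CPM without and with IR (ratio 1.94, counting interval 1.82 to 2.06), *Insig1* at 19.2 and 35.6 (1.86), *Hmgcs1* at 91.3 and 157 (1.72), *Cyp51* at 28.5 and 47.7 (1.68) and *Msmo1* at 104.6 and 166 (1.58). *Lss* (1.36), *Sqle* (1.36) and *Fdft1* (1.34) were below that limit. In the *Chek2*-/- libraries 0 of the 8 were past 1.5-fold in these cells, beside 2.96% of genes, and the ratios were 0.91 (*Hmgcs1*) to 1.15 (*Insig1*) with a median of 0.99. The nonIR libraries of the 2 genotypes had ratios of 0.89 to 1.13 to each other, so the irradiated WT library stood apart from the other 3. In the same granulosa-like cells, from nonIR to IR, summed granulosa markers went from 4197 to 3795 UMI CPM in WT and 4527 to 4716 in *Chek2*-/-, those of surface epithelium from 247 to 350 and 229 to 204, and those of smooth muscle from 31.9 to 47.8 and 26.2 to 25.9, and their part in the ratios was not tested. The 8 p53 targets summed to 183, 520, 186 and 213 UMI CPM in the granulosa-like cells of WT nonIR, WT IR, *Chek2*-/- nonIR and *Chek2*-/- IR.

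The size differed between the clusters of the class. In cluster 8 of the WT libraries *Insig1* was at 18.4 and 46.4 UMI CPM without and with IR (ratio 2.52), *Idi1* at 22.1 and 57.6 (2.61), *Cyp51* at 25.8 and 62.6 (2.42), *Hmgcs1* at 125 and 238 (1.90) and *Msmo1* at 118 and 220 (1.86). In the dividing cells of cluster 0 the 8 ratios were 1.15 to 1.62 and in cluster 1 they were 1.03 to 1.46, each lowest for *Lss*. In the *Chek2*-/- libraries cluster 8 had ratios of 0.91 to 1.24. Cluster 8 made up 28.8% of granulosa-like cells in WT nonIR, 38.4% in WT IR, 35.0% in *Chek2*-/- nonIR and 23.6% in *Chek2*-/- IR. Without cluster 8, an alternative added after seeing the data, 2 of the 8 genes were past 1.5-fold in WT cells (*Insig1* 1.52 and *Idi1* 1.54), *Hmgcs1* was at 1.39, *Msmo1* at 1.35 and *Cyp51* at 1.34. The share of all genes past 1.5-fold was not computed for single clusters or without cluster 8, so these values have no background. With the mean over cells of each cell's UMI share in place of the sum, *Insig1* was at 2.07 and *Sqle* at 1.43.

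Stroma-like and oocyte-like cells had smaller ratios. In stroma-like cells 0 of the 8 were past 1.5-fold in WT, beside 3.11% of genes, with ratios of 1.04 to 1.22, and 0 of 8 in *Chek2*-/-, beside 2.30% of genes, with ratios of 0.97 to 1.22. In oocyte-like cells 0 of the 8 were past 1.5-fold in WT, beside 24.4% of genes, and 0 of 8 in *Chek2*-/-, beside 5.93% of genes. The largest ratio of the 8 there was that of *Insig1* in WT (1.37, counting interval 1.28 to 1.47), and *Fdft1* had 1.11 in WT and 1.12 in *Chek2*-/-. The oocyte-like cells of the irradiated WT library were shallow, with a median of 17555 UMIs against 122799 to 183069 in the other 3, and 31.1% of them had at least 50000 UMIs, against 65.9% to 82.7%. Between the WT nonIR and IR libraries, summed markers of other classes in oocyte-like cells went from 75.8 to 243 UMI CPM for surface epithelium, 8.47 to 47.8 for macrophages, 227 to 340 for stroma and 504 to 241 for granulosa, and their part in these ratios was not tested. Summed values were carried by the deep cells, which held 90.5% to 98.3% of the UMIs of the class, and with only these cells, an alternative added after seeing the data, *Fdft1* in WT was at 1.15. With the mean over cells instead, the WT ratio of *Fdft1* was 0.69, that of *Msmo1* 2.38, of *Cyp51* 2.06 and of *Sqle* 0.73, and in *Chek2*-/- that of *Idi1* was 1.68 and of *Lss* 0.41, so the values in oocyte-like cells depended on how cells were weighted.

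**Figure D5:**
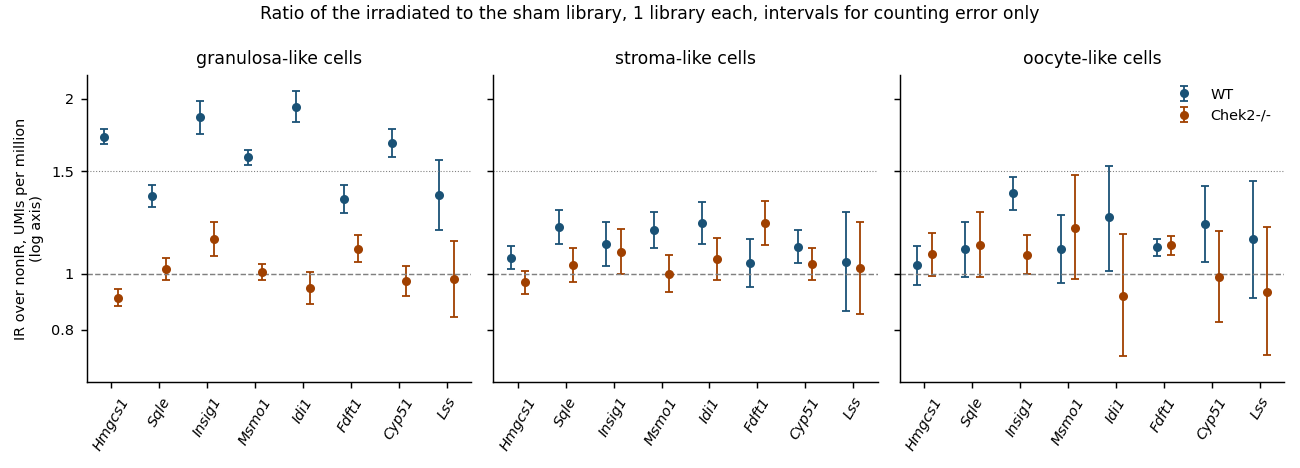
Ratio of the irradiated to the nonIR single-cell library for the 8 genes in granulosa-like, stroma-like and oocyte-like cells of WT and *Chek2*-/- ovaries (UMI CPM, log axis), with 95% intervals for counting error only and a dotted line at 1.5. In granulosa-like cells the 8 WT ratios lie at 1.34 to 1.94 and the 8 *Chek2*-/- ratios at 0.91 to 1.15.

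Over all cells of a library together, the WT ratios were 1.68 for *Idi1*, 1.6 for *Msmo1*, 1.44 for *Cyp51*, 1.42 for *Hmgcs1*, 1.28 for *Sqle*, 1.20 for *Insig1*, 1.11 for *Lss* and 0.75 for *Fdft1*. The fitted bulk folds in WT ovaries were 1.18 for *Idi1*, 1.12 for *Msmo1*, 1.14 for *Cyp51*, 1.075 for *Hmgcs1*, 1.02 for *Sqle*, 0.91 for *Insig1*, 1.07 for *Lss* and 0.92 for *Fdft1*. *Insig1* was above 1 in the single-cell and below 1 in the bulk values, and *Fdft1* was below 1 in both. Oocyte-like cells gave 15.5% of the UMIs of the WT nonIR library and 7.42% of those of the WT IR library, and 7.10% and 9.29% in *Chek2*-/-, where the ratio of *Fdft1* over all cells was 1.3 and the other 7 were at 0.96 to 1.18. The part of these shares in the *Fdft1* ratios was not tested.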

How the data were processed

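RNA was sequenced from whole ovaries (24 libraries) and from dissociated cells (4 libraries). The bulk table holds estimated counts per gene, deposited by the authors and made with Trim Galore 0.6.5 and Salmon 1.3.0 against Ensembl transcripts, with FastQC 0.11.9 and MultiQC 1.9 for quality control, per the labels. They were rounded, genes with at least 10 counts over 24 libraries were kept, and edgeR 4.0.16 (R 4.3.3) was fitted to all 4 groups with TMM scaling. DESeq2 1.42.0, limma-voom (limma 3.58.1), other scalings and filters, a replicate block and left-out libraries were alternatives. In simulated counts of 26358 genes for the WT comparison, 52.2% of 1.25-fold, 95.5% of 1.5-fold and 98.5% of 2-fold changes were called, and 3.53% of calls were false. The changes were put into 66 or 67 genes per fold, drawn at random from those with a mean of 20 to 200 CPM. These rates were not computed for the 8 genes. The single-cell matrices hold counts of UMIs per gene and barcode, deposited by the authors from Cell Ranger and build mm10. Cells with under 1000 genes, over 20% mitochondrial or over 50% ribosomal UMIs and doublets called by Scrublet were left out, and genes in fewer than 3 cells were dropped. Cells were clustered with scanpy 1.11.5 (2000 variable genes without the cholesterol lists, 30 components, 15 neighbours, Leiden resolution 0.5). A class needed at least 60% of its marker list and at least 3 markers, each in 25% of cells and 2-fold above the median cluster, and no other list with more of its markers among the top 10 genes, limits fixed once the clusters were known. Within each class, UMIs of a library were added up, with 0.5 added to each sum in a ratio, ratios were given from 100 UMIs on, and intervals are 95% intervals. Named genes were all 8 members, called genes of the other cholesterol lists, the 6 p53 targets with the smallest adjusted p-values and the 8 genes most like the members. The members and lists were chosen with earlier results of these data known.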

Additional observations from a re-analysis of the deposited data

Results flagged for a closer look

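In 5 of the 32 sets of 6 bulk libraries (8 genes in 4 groups), the highest or lowest library lay farther from its nearest neighbour than Dixon's 95% criterion allows, where chance flags about 1 in 20 sets. In nonIR *Chek2*-/- ovaries replicate 6 was the highest for *Hmgcs1* (209 CPM) and the lowest for *Insig1* (122 CPM), and in IR *Chek2*-/- ovaries replicate 6 was the lowest for *Fdft1* (124 CPM). These are the 2 libraries low in oocyte markers, at 1206 and 1376 CPM. In nonIR WT ovaries replicate 1 was the highest for *Idi1* (38.1 CPM) and *Cyp51* (79.1 CPM), and it was the library that was highest for all 8 genes in its group. The causes were not tested.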

How the results depend on the processing

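The number of the 8 genes called between nonIR genotypes (1 as reported) was 4 with DESeq2, 4 with scaling by total counts, 3 with edgeR's default filter on low counts, 2 with upper-quartile scaling, 0 with only the groups compared, 0 with a 2-fold minimum, 3 with libraries numbered 1 to 4 only (chosen after seeing the data) and 0 to 3 with single libraries left out. In the interaction it was 0 as reported and 0 to 2 with single libraries left out. Of all genes, 1430 of 26790 were called between nonIR genotypes as reported, 2423 with DESeq2, 1585 with total counts and 1517 with upper-quartile scaling. Calls over all genes were 1756 of 18919 with the default filter and 785 of 24737 with only the groups compared. Replicate numbers were not taken to pair the libraries, since the correlation of same-numbered deviations did not exceed 0.1 in all pairs. It did in 4 of 6 WT pairs (range 0.015 to 0.52) and 5 of 6 *Chek2*-/- pairs (0.096 to 0.79, the highest for number 6). Some same-numbered libraries thus resembled each other, and what they share is not known. As a hint from the data, 2 of 6 and 4 of 6 libraries correlated best with their own number. With a replicate block 3 of the 8 were called between genotypes, and 2025 in place of 1430 genes of all. Fitted log2 fold changes near 0 changed sign. *Fdft1* after IR in *Chek2*-/- ovaries was at −0.0092 with total counts, −9.4e-05 with the default filter, −0.0015 with only the groups compared, −0.021 without both *Chek2*-/- libraries numbered 6, −0.038 with libraries 1 to 4, and −0.066 to 0.042 with single libraries left out. *Insig1* between genotypes was at 0.024 without both libraries numbered 6, 0.026 with libraries 1 to 4, and −0.049 to 0.025 with single libraries left out. *Sqle* after IR in WT was at −0.088 with libraries 1 to 4 and −0.0066 to 0.080 with single libraries left out, *Lss* between genotypes at −0.021 and −0.026 to 0.066, and *Lss* after IR in *Chek2*-/- at −0.051 to 0.025 with single libraries left out. The median of the 8 after IR in WT was 0.015 with libraries 1 to 4 and 0.079 to 0.14 with single libraries left out. The number of single-cell ratios past 1.5-fold, 5 of 48 as reported, was 9 with the mean over cells and 2 without cluster 8. The share of all genes was not computed for these alternatives. Of the 8 genes most like the members 4 were kept after centring. The causes were not tested. With 1 single-cell library per condition no spread between animals was measured.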

Other observations

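Cluster 11 (654 cells, led by *Akr1c18*, *Rmst* and *Hsd3b1*) was left unnamed, since its top 10 genes held a gene of the theca list (*Hsd3b1*) and no granulosa marker, although 8 of 10 granulosa markers passed the limits. Cluster 8 also held no granulosa marker there but none of another class. The study uses *Hsd3b1* as a marker of granulosa cells in activated follicles, so leaving cluster 11 unnamed rests on the theca list. In cluster 11 the *Hmgcs1* level was 103 to 141 and the *Msmo1* level 101 to 138 UMI CPM over the libraries, with medians of 116 and 114. Both medians were above those of granulosa-like cells (91.9 and 103.9). Summed over the lists, the 8 genes were at 592 to 675 UMI CPM in oocyte-like, 352 to 565 in granulosa-like and 172 to 193 in stroma-like cells, and *Fdft1* alone gave 350 to 400 of the sum in oocyte-like cells. The 17 other synthesis enzymes were at 512 to 573, 459 to 573 and 306 to 323 UMI CPM in the same classes. In bulk, *Hmgcs1* and *Cyp51* had negative correlations with the granulosa marker score (r = −0.53 each, adjusted permutation p = 0.0544 each, 24 libraries), which did not pass the threshold.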
